A study of Mus musculus with 6 samples.

Results

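The collagen genes, the rows of the count table whose symbol is Col, a number, the letter a and a number, were followed across transdifferentiated cells, muscle and mouse embryonic fibroblasts (MEF). There were 44 of them among 55286 symbols, and 39 were among the 17400 genes with enough counts to be tested. The RNA sequencing libraries were from mouse, with 2 libraries in each of the 3 groups: cells titled as direct reprogramming (called transdifferentiated cells here), muscle, and MEF. Whether the muscle libraries came from tissue or from cultured cells is not known here. The labels give no strain, age, introduced factor, time after conversion or muscle of origin, and do not say whether replicates were separate cultures or animals, so p-values measure only the spread between these libraries, which may be technical. The library names carry the tags STauMEF for MEF, SEndomuscle for muscle and SiMuscle for transdifferentiated cells. No meaning was read into these tags. Markers of skeletal muscle, among them Ttn, Ckm and Myh4, summed to 34170.1 and 50964 CPM in transdifferentiated cells, 50459.8 and 46771 CPM in muscle and 563 and 372 CPM in MEF, which sets both muscle-labelled and transdifferentiated libraries apart from MEF.

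Collagens are triple-helical proteins of the extracellular matrix, and their classes differ in what they build. Fibrillar collagens form the load-bearing fibrils of connective tissue, and the FACIT collagens (fibril-associated collagens with interrupted triple helices) sit on the surface of those fibrils. Type IV collagens form the network of basement membranes, type VI collagens form beaded microfibrils next to the basement membrane of muscle fibres, and transmembrane collagens are anchored in the cell surface, some of them at the contact between nerve and muscle. The 44 genes comprised 11 fibrillar, 6 basement membrane, 9 FACIT, 6 type VI and 4 transmembrane collagens. The others were 2 multiplexins, 3 short-chain network collagens and 3 of other kinds. Col21a1, a further FACIT collagen, had no row in the count table.

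The regions just upstream of the transcription start were compared for 6 genes: the 4 transmembrane collagens, and Col6a1 and Col6a2 of type VI. They are given 5′ to 3′ on the gene's strand from RefSeq, build GRCm38.p6, and stop at the annotated start or at the first base of any GENCODE exon. That of Col25a1 lies inside the longer gene body that GENCODE gives. Capitals mark matches on either strand. The motifs searched were CANNTG (the E-box that myogenic helix-loop-helix factors can bind), with CAGCTG as one form of it, and the core promoter element TATAAA. Also searched were CCAAT and the consensus of MEF2, a factor family of muscle.
Col13a1, chr10:61979109-61979358, minus strand: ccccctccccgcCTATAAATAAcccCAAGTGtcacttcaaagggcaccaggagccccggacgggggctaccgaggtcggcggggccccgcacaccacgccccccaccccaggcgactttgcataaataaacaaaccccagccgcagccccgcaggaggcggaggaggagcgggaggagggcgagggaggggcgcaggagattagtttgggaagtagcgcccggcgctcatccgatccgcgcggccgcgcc
Col17a1, chr19:47692095-47692292, minus strand: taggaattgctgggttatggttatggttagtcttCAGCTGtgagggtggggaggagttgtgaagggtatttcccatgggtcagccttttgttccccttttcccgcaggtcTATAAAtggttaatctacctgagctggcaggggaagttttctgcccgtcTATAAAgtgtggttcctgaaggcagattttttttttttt
Col23a1, chr11:51289670-51289919, plus strand: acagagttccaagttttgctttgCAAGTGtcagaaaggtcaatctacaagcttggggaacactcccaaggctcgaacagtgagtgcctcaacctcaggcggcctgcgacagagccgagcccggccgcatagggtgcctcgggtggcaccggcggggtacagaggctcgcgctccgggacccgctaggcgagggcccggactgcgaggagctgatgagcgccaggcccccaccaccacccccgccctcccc
Col25a1, chr3:130180595-130180844, plus strand: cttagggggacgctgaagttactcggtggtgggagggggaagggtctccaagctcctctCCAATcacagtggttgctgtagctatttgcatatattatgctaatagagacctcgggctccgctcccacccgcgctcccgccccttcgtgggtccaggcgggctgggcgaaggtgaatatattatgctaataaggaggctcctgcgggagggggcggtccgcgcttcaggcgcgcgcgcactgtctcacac
Col6a1, chr10:76726169-76726294, minus strand: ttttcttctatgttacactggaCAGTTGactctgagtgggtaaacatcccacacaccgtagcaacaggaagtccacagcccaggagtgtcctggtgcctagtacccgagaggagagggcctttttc
Col6a2, chr10:76623631-76623880, minus strand: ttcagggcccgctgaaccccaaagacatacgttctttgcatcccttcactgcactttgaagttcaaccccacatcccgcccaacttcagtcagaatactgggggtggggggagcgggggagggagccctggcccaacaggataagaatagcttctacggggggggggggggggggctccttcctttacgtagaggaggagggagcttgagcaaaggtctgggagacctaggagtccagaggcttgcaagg
RefSeq start regions were found for 35 of the 44 genes and gave 38 windows, each from 250 bases before to 50 after the start. CANNTG was in 52.6% of the collagen windows and in 72.3% of all 32851 windows, while CAGCTG was in 18.4% and 16.3%. TATAAA was in 13.2% of the collagen windows and 13.6% of all windows, and CCAAT in 34.2% and 37.4%. The MEF2 consensus was in 2.63% of the collagen windows, those of Col13a1 alone, and in 3.19% of all windows; in Col13a1 it overlaps the TATAAA match. The letters of Col6a2 held none of these motifs in the stretch shown. A match describes the letters only.

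Total counts were 16817033 and 21072555 in transdifferentiated cells, 24584951 and 16952000 in muscle, and 18997705 and 18978216 in MEF. Collagen genes took 1.78% and 2.02% of the counts in transdifferentiated cells, 1.57% and 0.902% in muscle and 3.13% and 2.41% in MEF, so both transdifferentiated libraries and both muscle libraries lay below both MEF libraries. Replicates differed beyond counting noise in every group (chi-square per degree of freedom 66.7, 40.2 and 71.1 for transdifferentiated cells, muscle and MEF). Fibroblast markers summed to 1108 and 874 CPM in transdifferentiated cells, 177 and 185 CPM in muscle and 2340.0 and 2164 CPM in MEF. Macrophage markers summed to 483 and 499 CPM in transdifferentiated cells, 5.03 and 2.01 CPM in muscle and 63.1 and 47.4 CPM in MEF, and endothelial markers to 5.28 and 9.83 CPM in transdifferentiated cells, 2.13 and 0.609 CPM in muscle and 22.1 and 20.8 CPM in MEF. Schwann cell markers summed to 85.6 and 105 CPM in transdifferentiated cells, 227 and 229 CPM in muscle and 21.3 and 13.6 CPM in MEF, tendon and cartilage markers to 111 and 157 CPM in transdifferentiated cells, 194 and 190.3 CPM in muscle and 192 and 148 CPM in MEF, and epithelial markers to 2.25 and 4.26 CPM in transdifferentiated cells, 1.41 and 3.53 CPM in muscle and 10.6 and 10.4 CPM in MEF. In muscle against MEF, 1 of the 5 tested Schwann markers was higher and 4 were lower. The same counts held for the 5 tested tendon and cartilage markers, so the muscle sums of these lists do not reflect most members. Every member of the marker lists above had counts in at least 1 library. Of the macrophage list, Ptprc, Adgre1 and Tyrobp had 0 counts in both muscle libraries, as did Emcn of the endothelial list. Tie1, also of the endothelial list, had 0 counts in both muscle and both transdifferentiated libraries.

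Levels are given as CPM (counts scaled to a fixed library size) after TMM scaling, by library, and differences as log2 fold change ± SE from edgeR's quasi-likelihood test with Benjamini-Hochberg adjustment over all tested genes. A gene is called higher or lower at an adjusted p under 0.05. With a mean of 100 CPM or more there were 13 collagen genes in transdifferentiated cells, 11 in muscle and 12 in MEF, and 10, 12 and 15 had a mean below 1 CPM. In transdifferentiated cells against MEF, 13 of the 39 tested collagen genes were higher (33.3%, where 15.9% of all tested genes were) and 5 were lower (12.8%, against 11.3% of all). In muscle against MEF, 9 were higher (23.1%, against 17.3% of all) and 17 lower (43.6%, against 18.3% of all). In transdifferentiated cells against muscle, 11 were higher (28.2%, against 7.58% of all) and 1 was lower (2.56%, against 2.46% of all); in either direction 27.3%, 35.6% and 10% of all tested genes were called in these comparisons. Genes that entered the test only through the group where they are high had to differ, so these counts describe the tested members and not the whole family. The comparisons share libraries, so their counts are not independent. The shares of all tested genes given here are also the reference for the class counts below. In bulk RNA, fewer cells of a type and less RNA per cell cannot be told apart.

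The number of collagen genes lower than MEF depended on single libraries. It was 2 in transdifferentiated cells without either transdifferentiated replicate 1 or MEF replicate 1, in place of 5, and 8 in muscle without muscle replicate 2, in place of 17. Without that same muscle library, 6 collagen genes were higher in transdifferentiated cells than in muscle, in place of 11.

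**Figure D1:**
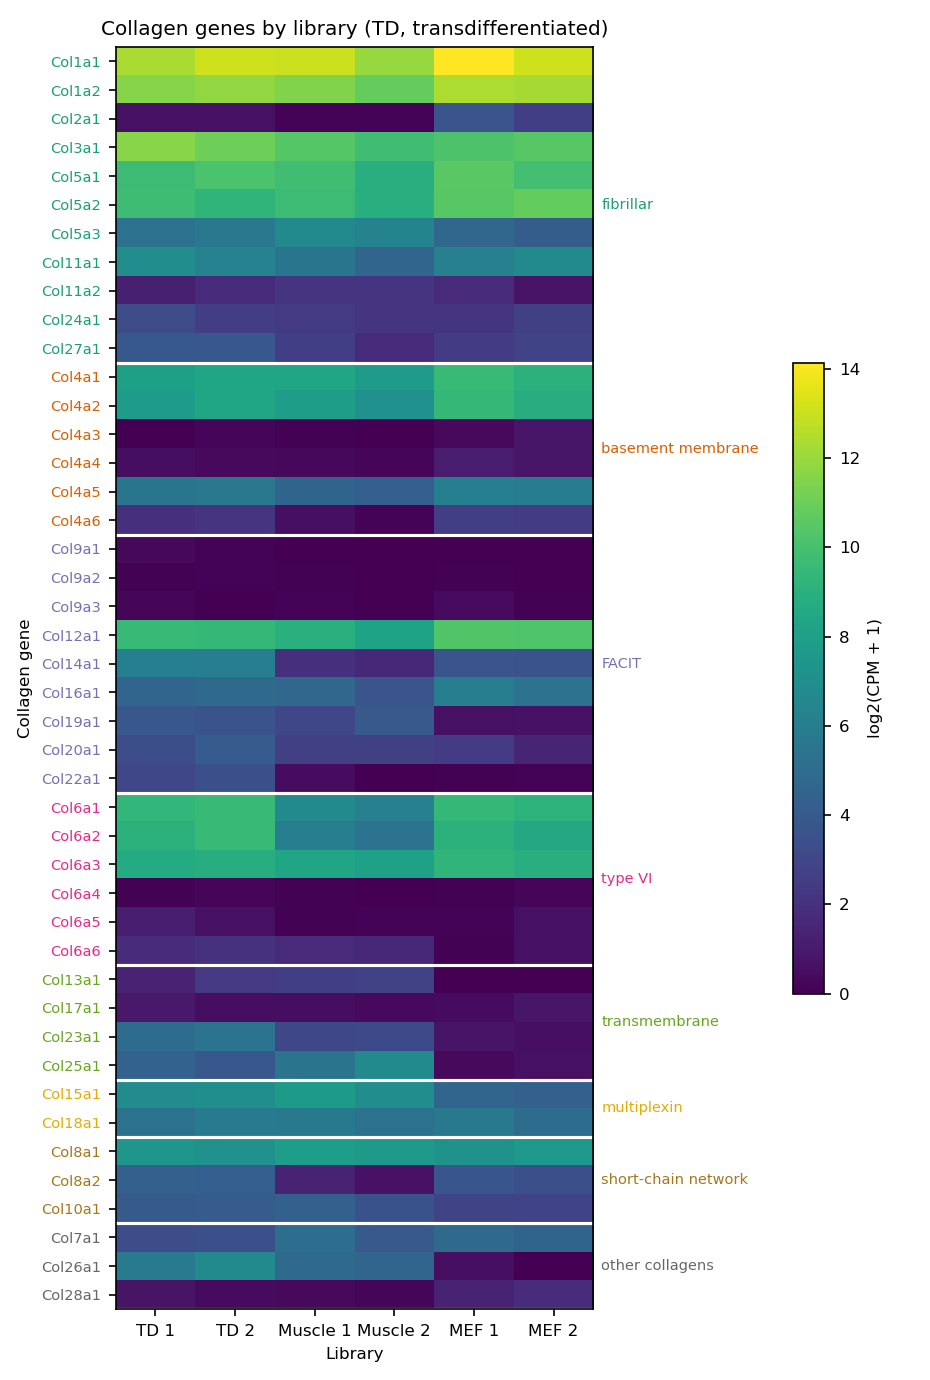
Heat map of the level of the 44 collagen genes (rows, grouped and coloured by class) in the 6 libraries (columns), as log2(CPM + 1). Col1a1 is the brightest row in all libraries, and Col13a1, Col23a1, Col25a1 and Col26a1 are darkest in MEF.

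The fibrillar class made up most of the collagen reads in every group, and the type I genes did not pass the test in transdifferentiated cells against MEF. Col1a1 and Col1a2 encode the chains of type I collagen, the main fibril of skin, bone and tendon. Col1a1 (chromosome 11, 94936224 to 94953042, mm10, GENCODE M21) was at 5201 and 9019 CPM in transdifferentiated cells, 8228 and 3925 CPM in muscle and 18119.8 and 8973 CPM in MEF. Col1a2 (chromosome 6, 4504814 to 4541544) was at 3107 and 3636 CPM in transdifferentiated cells, 2788 and 1801 CPM in muscle and 5427 and 4839 CPM in MEF. All transdifferentiated and muscle libraries lay below both MEF libraries for Col1a2, but for Col1a1 transdifferentiated replicate 2 exceeded MEF replicate 2. The log2 fold change of Col1a1 was -0.93 ± 0.46 (adjusted p = 0.169) in transdifferentiated cells against MEF, -1.16 ± 0.46 (adjusted p = 0.081) in muscle against MEF, and 0.23 ± 0.45 (adjusted p = 0.869) in transdifferentiated cells against muscle. Col1a2 was lower in muscle than in MEF (-1.16 ± 0.28, adjusted p = 0.0105), a call that ended without muscle replicate 2 (adjusted p = 0.108). Col1a1 passed the threshold against MEF in transdifferentiated cells without MEF replicate 2 (adjusted p = 0.0231), and in muscle without transdifferentiated replicate 1, transdifferentiated replicate 2, muscle replicate 1 or MEF replicate 2 (adjusted p = 0.0379, 0.0373, 0.0415 and 0.00699).

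Col3a1 (chromosome 1, 45311538 to 45349706), the chain of type III collagen in distensible tissues, was the fibrillar gene that was higher in transdifferentiated cells than in both other groups. It was at 3179 and 2114 CPM in transdifferentiated cells, 1346 and 889 CPM in muscle and 1164 and 1435 CPM in MEF, with both transdifferentiated libraries above all others. The log2 fold change was 1.03 ± 0.31 (adjusted p = 0.0363) against MEF and 1.24 ± 0.31 (adjusted p = 0.0353) against muscle. The call against MEF was lost without transdifferentiated replicate 1 or MEF replicate 1 (adjusted p = 0.193 and 0.109), and that against muscle without transdifferentiated replicate 1, muscle replicate 1 or muscle replicate 2 (adjusted p = 0.163, 0.0629 and 0.286). Its tail-to-tail neighbour at 24614 bp on chromosome 1, Col5a2, moved the other way against MEF. Fibroblast markers moved with Col3a1 against muscle, where 9 of the 10 tested were higher in transdifferentiated cells and the other 1 did not pass, but not against MEF, where 2 were higher and 4 lower. Macrophage markers moved with Col3a1 in both comparisons, with 9 of the 10 tested higher in transdifferentiated cells against MEF and 10 of 10 against muscle. The part of either list in the result was not tested.

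Type V collagens nucleate type I fibrils, and their 3 chains did not move as a unit. Col5a1 was at 836 and 1110.1 CPM in transdifferentiated cells, 883 and 486 CPM in muscle and 1499.9 and 965 CPM in MEF, where both muscle libraries lay below both MEF libraries and the transdifferentiated libraries overlapped with each of those groups. Col5a2 was at 847 and 607 CPM in transdifferentiated cells, 823 and 474 CPM in muscle and 1431 and 1771 CPM in MEF, both MEF libraries above all others. Col5a3 was at 39.9 and 49.3 CPM in transdifferentiated cells, 103 and 80.5 CPM in muscle and 24.2 and 17.2 CPM in MEF, with the groups apart and in the order muscle, transdifferentiated cells, MEF. Col5a2 was lower than in MEF in transdifferentiated cells (-1.14 ± 0.32, adjusted p = 0.0292) and in muscle (-1.30 ± 0.32, adjusted p = 0.0127). Col5a3 was higher than in MEF in transdifferentiated cells (1.11 ± 0.29, adjusted p = 0.0209) and in muscle (2.15 ± 0.30, adjusted p = 0.00064), and its difference between transdifferentiated cells and muscle was -1.04 ± 0.28 (adjusted p = 0.0534). Col5a2 lost its call in transdifferentiated cells without transdifferentiated replicate 2 or MEF replicate 2 (adjusted p = 0.107 and 0.0597) and in muscle without muscle replicate 2 (adjusted p = 0.113). Col5a3 lost its call in transdifferentiated cells without transdifferentiated replicate 2 or MEF replicate 2 (adjusted p = 0.0866 and 0.0991), and passed against muscle without MEF replicate 1 or MEF replicate 2 (adjusted p = 0.0262 and 0.0271). Col5a1 passed in muscle against MEF without muscle replicate 1 or MEF replicate 2 (adjusted p = 0.0468 and 0.0254).

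Among the minor fibrillar chains, Col2a1, the main collagen of cartilage, was lower than MEF in both other groups. It was at 0.562 and 0.581 CPM in transdifferentiated cells, 0.0853 and 0.122 CPM in muscle and 12.1 and 5.1 CPM in MEF, with a log2 fold change of -3.89 ± 0.56 (adjusted p = 0.00124) in transdifferentiated cells and -6.32 ± 0.70 (adjusted p = 0.000189) in muscle. Col11a1, which joins cartilage and other thin fibrils, was at 119.9 and 75.9 CPM in transdifferentiated cells, 43.8 and 23.3 CPM in muscle and 70.8 and 102 CPM in MEF. It was lower in muscle than in MEF (-1.37 ± 0.38, adjusted p = 0.0212) and higher in transdifferentiated cells than in muscle (1.54 ± 0.38, adjusted p = 0.0353), with muscle below all other libraries. Col27a1 was at 13.8 and 13.2 CPM in transdifferentiated cells, 5.16 and 2.37 CPM in muscle and 4.79 and 6.41 CPM in MEF and was higher in transdifferentiated cells than in muscle (1.83 ± 0.42, adjusted p = 0.027). Col11a2 averaged 1.86 CPM in transdifferentiated cells, 3.51 CPM in muscle and 1.44 CPM in MEF, and Col24a1 averaged 6.63 CPM in transdifferentiated cells, 3.92 CPM in muscle and 4.4 CPM in MEF; neither passed in any comparison. Col11a1 lost its call in muscle against MEF without muscle replicate 2 or MEF replicate 2 (adjusted p = 0.161 and 0.0523), and in transdifferentiated cells against muscle without transdifferentiated replicate 1 or muscle replicate 2 (adjusted p = 0.114 and 0.261). Col27a1 lost its call without transdifferentiated replicate 1 or muscle replicate 2 (adjusted p = 0.0518 and 0.194), and passed against MEF without muscle replicate 1 or muscle replicate 2 (adjusted p = 0.0414 and 0.0405). Col2a1 passed in transdifferentiated cells against muscle without MEF replicate 2 (adjusted p = 0.0466), and Col11a2 in muscle against MEF without MEF replicate 1 (adjusted p = 0.0213). Of the 5 tested tendon and cartilage markers, 1 was higher and 2 lower in transdifferentiated cells than in MEF, and 1 was higher and 4 lower in muscle; their part in the Col2a1 result was not tested.

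Of the 11 fibrillar genes, all tested, 2 were higher and 2 lower in transdifferentiated cells than in MEF, with a median log2 fold change of 0.18 (all tested genes, 0.07). In muscle against MEF, 1 was higher and 4 lower, with a median of -0.85 (all tested genes, 0). Against muscle, 3 were higher in transdifferentiated cells and the other 8 did not pass, with a median of 0.56 (all tested genes, 0.03). Without MEF replicate 2 the first median was -0.24.

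The basement membrane collagens were lower in muscle than in MEF, in all 5 tested members. Col4a1 and Col4a2, whose chains form the type IV network found in nearly all basement membranes, lie head to head on chromosome 8 with gene bodies that overlap by 22 bp. Col4a1 was at 263 and 326 CPM in transdifferentiated cells, 322 and 218 CPM in muscle and 759 and 549 CPM in MEF. Col4a2 was at 217 and 331 CPM in transdifferentiated cells, 235 and 141 CPM in muscle and 697 and 444 CPM in MEF. All transdifferentiated and muscle libraries lay below both MEF libraries for both genes. In muscle the log2 fold change was -1.27 ± 0.29 (adjusted p = 0.00888) for Col4a1 and -1.60 ± 0.36 (adjusted p = 0.00801) for Col4a2. In transdifferentiated cells it was -1.15 ± 0.29 (adjusted p = 0.0187) for Col4a1 and -1.06 ± 0.35 (adjusted p = 0.0559) for Col4a2. Each lost its call in muscle without muscle replicate 2 (adjusted p = 0.0992 and 0.078). In transdifferentiated cells Col4a1 lost its call without transdifferentiated replicate 1 or MEF replicate 1 (adjusted p = 0.0861 and 0.0684), whereas Col4a2 passed without transdifferentiated replicate 2 or MEF replicate 2 (adjusted p = 0.0309 and 0.0137). Without a stated strand setting, reads in the shared bases cannot be assigned to either gene.

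The other type IV chains, which form the networks of glomerular, smooth muscle and some epithelial basement membranes, were lower in abundance. Col4a5 was at 43.3 and 50.3 CPM in transdifferentiated cells, 22.4 and 17.5 CPM in muscle and 67.8 and 62.1 CPM in MEF, with the groups apart and muscle lowest. Its log2 fold change was -1.70 ± 0.27 (adjusted p = 0.00119) in muscle against MEF and 1.23 ± 0.26 (adjusted p = 0.0186) in transdifferentiated cells against muscle. Col4a6, 1308 bp from Col4a5 and head to head with it on the X chromosome, averaged 3.09 CPM in transdifferentiated cells, 0.295 CPM in muscle and 4.8 CPM in MEF. It was lower in muscle than in MEF (-3.91 ± 0.59, adjusted p = 0.00106) and higher in transdifferentiated cells than in muscle (3.28 ± 0.59, adjusted p = 0.00886), as was Col4a5. Col4a4 averaged 0.37 CPM in transdifferentiated cells, 0.198 CPM in muscle and 0.994 CPM in MEF and was lower in muscle than in MEF (-2.28 ± 0.74, adjusted p = 0.0398), a call that ended with each library removed in turn (adjusted p 0.0533 to 0.25). Col4a3 did not have enough counts to be tested, with 3 counts in transdifferentiated cells, 1 in muscle and 21 in MEF. Col4a5 lost its call against muscle without transdifferentiated replicate 2, muscle replicate 1 or muscle replicate 2 (adjusted p = 0.0721, 0.0834 and 0.213), and Col4a6 without muscle replicate 2 (adjusted p = 0.0586). In transdifferentiated cells against MEF the other 4 tested type IV genes did not pass, and the class median was -1.06, which was -0.70 without MEF replicate 1. The median was -1.70 in muscle against MEF and 0.86 in transdifferentiated cells against muscle. Of the 6 tested endothelial markers, 2 were lower in transdifferentiated cells than in MEF and 5 were lower in muscle, and their part in these results was not tested.

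**Figure D2:**
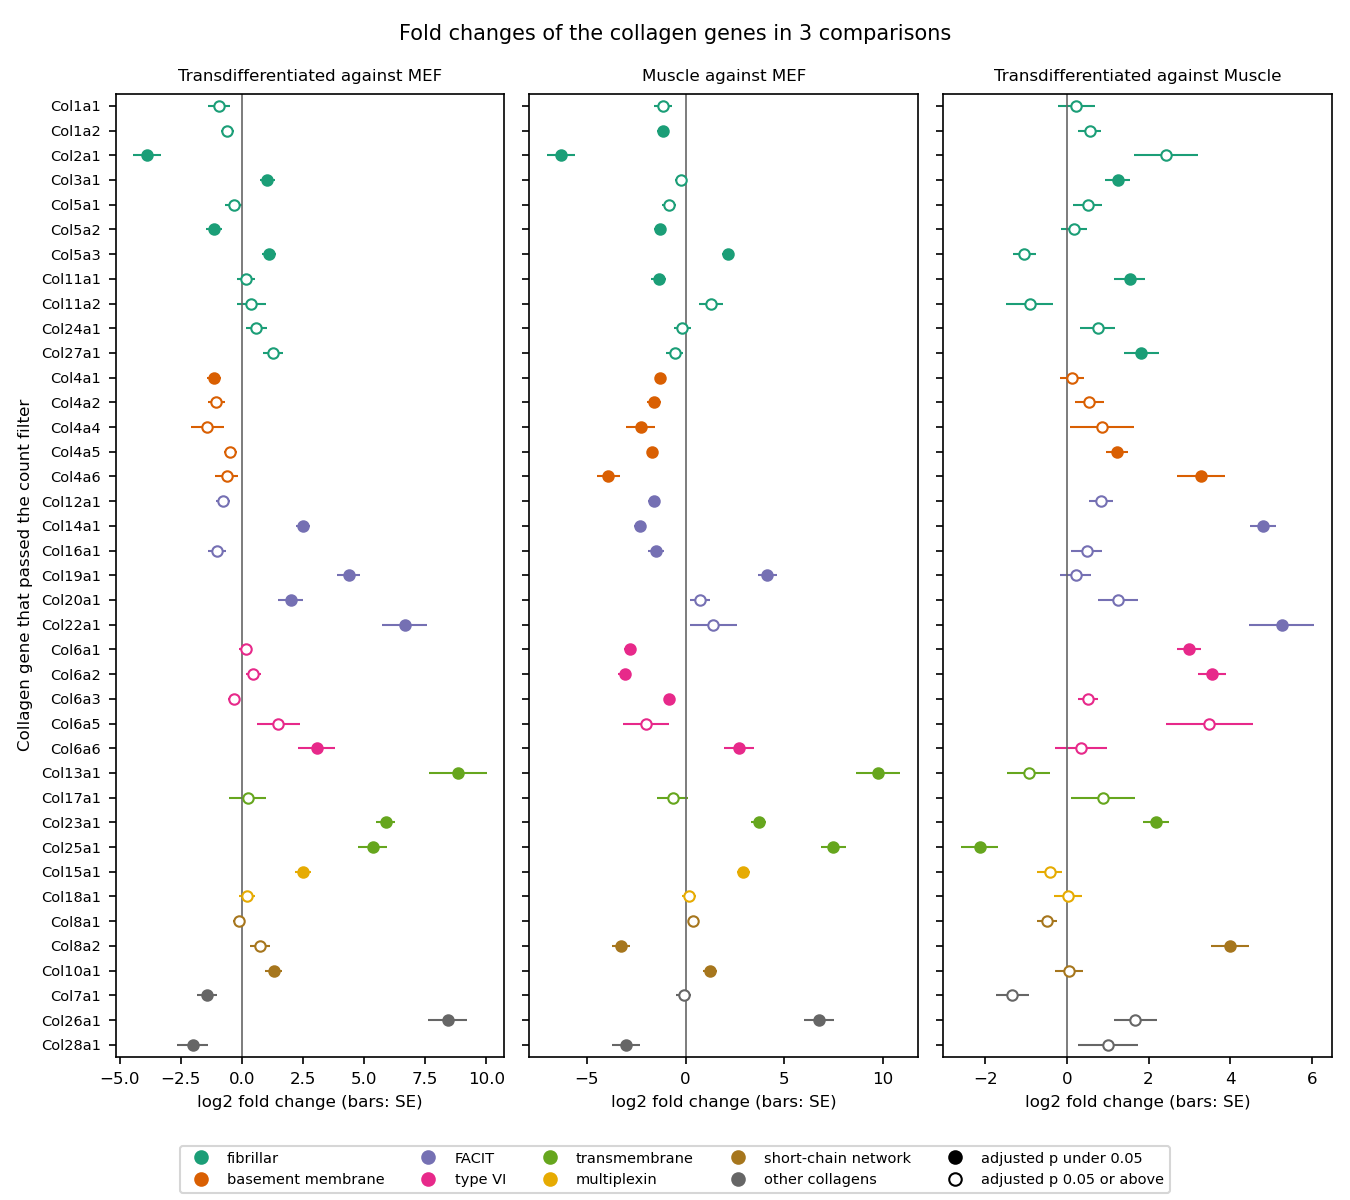
Log2 fold change (x axis) with its SE for the 39 tested collagen genes (rows, coloured by class) in 3 comparisons; filled points have an adjusted p under 0.05. The fitted values of Col13a1 against MEF rest on 0 counts in MEF and are not a measured size. All 5 type IV points are filled and left of 0 in muscle against MEF, and Col6a1 and Col6a2 are filled and right of 0 in transdifferentiated cells against muscle.

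The type VI genes Col6a1 and Col6a2 were far lower in muscle than in both other groups, while transdifferentiated and MEF libraries overlapped. Col6a1, Col6a2 and Col6a3 encode the chains of the type VI heterotrimer, mutations of which cause congenital muscle disease in humans. Col6a1 (chromosome 10, 76708792 to 76726168) was at 656 and 731 CPM in transdifferentiated cells, 105 and 70.3 CPM in muscle and 692 and 562 CPM in MEF. Col6a2 (chromosome 10, 76595762 to 76623630), 85161 bp away on the same strand, was at 536 and 728 CPM in transdifferentiated cells, 65.4 and 41.5 CPM in muscle and 542 and 372 CPM in MEF. Both muscle libraries lay far below the other 4 for both genes. In transdifferentiated cells against muscle the log2 fold change was 2.99 ± 0.29 (adjusted p = 0.000444) for Col6a1 and 3.56 ± 0.35 (adjusted p = 0.000462) for Col6a2. In muscle against MEF it was -2.84 ± 0.29 (adjusted p = 0.000113) for Col6a1 and -3.09 ± 0.34 (adjusted p = 0.000184) for Col6a2. Between transdifferentiated cells and MEF it was 0.14 ± 0.27 (adjusted p = 0.734) for Col6a1 and 0.47 ± 0.31 (adjusted p = 0.313) for Col6a2. These 4 calls held without any single library. Fibroblast markers were likewise higher in transdifferentiated cells than in muscle in 9 of 10, and lower in muscle than in MEF in 9 of 10, and macrophage markers higher in transdifferentiated cells than in muscle in 10 of 10 tested. Their part in the type VI result was not tested.

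Col6a3, the third chain of the heterotrimer, stood closer across the groups, at 417 and 447 CPM in transdifferentiated cells, 333 and 273 CPM in muscle and 613 and 481 CPM in MEF. It was lower in muscle than in MEF (-0.85 ± 0.24, adjusted p = 0.0239), and its difference between transdifferentiated cells and muscle was 0.51 ± 0.24 (adjusted p = 0.272). The call ended without muscle replicate 1, muscle replicate 2 or MEF replicate 1 (adjusted p = 0.075, 0.202 and 0.124). Per kilobase of the longest transcript, the ratio of Col6a3 to Col6a1 was 0.258 and 0.248 in transdifferentiated cells, 1.29 and 1.57 in muscle and 0.359 and 0.347 in MEF. Both muscle libraries thus lay above 1 and all others below it, and over union exons the ratio was 0.233 and 0.224 in transdifferentiated cells, 1.16 and 1.42 in muscle and 0.324 and 0.313 in MEF. With 2 libraries a group an exact permutation test cannot give a two-sided p below 0.333, so these ratios stand as values. The ratio of Col4a1 to Col4a2, also partners in 1 molecule, was 1.18 and 0.96 in transdifferentiated cells, 1.34 and 1.51 in muscle and 1.06 and 1.21 in MEF. Both muscle libraries were again above the other 4, by a smaller margin than for type VI. The ratio of Col1a1 to Col1a2, whose protein product holds them at a fixed stoichiometry, was 1.51 and 2.24 in transdifferentiated cells, 2.66 and 1.97 in muscle and 3.01 and 1.67 in MEF, with overlapping groups. That ratio moved with the length used, and over union exons it was 3.17 and 4.7 in transdifferentiated cells, 5.59 and 4.13 in muscle and 6.32 and 3.51 in MEF. The ratio of Col3a1 to Col1a1 was 0.651 and 0.25 in transdifferentiated cells, 0.174 and 0.241 in muscle and 0.0685 and 0.171 in MEF, and its spread between replicates was wide in transdifferentiated cells and in MEF. Over union exons it was 0.409 and 0.157 in transdifferentiated cells, 0.109 and 0.151 in muscle and 0.043 and 0.107 in MEF.

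**Figure D3:**
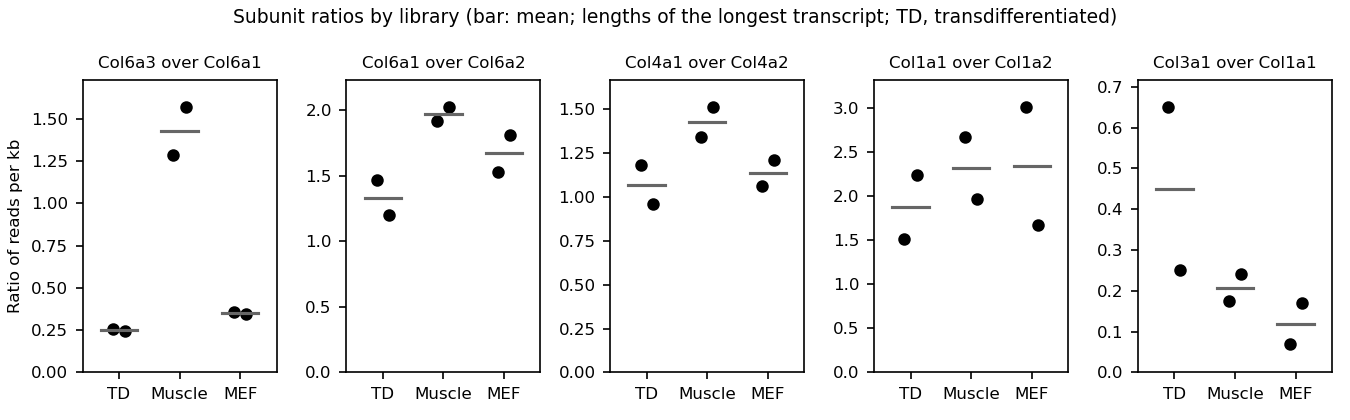
Ratios of reads per kilobase of the longest transcript for 5 pairs of chains (panels), with a point for each library and a bar at the mean of each group. For Col6a3 over Col6a1 the muscle points are at 1.29 and 1.57 and the other 4 lie between 0.248 and 0.359.

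The alternative type VI chains, Col6a4, Col6a5 and Col6a6, are encoded side by side on chromosome 9 and were scarce. Col6a6 averaged 2.76 CPM in transdifferentiated cells, 2.16 CPM in muscle and 0.319 CPM in MEF. It was higher than in MEF in transdifferentiated cells (3.05 ± 0.75, adjusted p = 0.0167) and in muscle (2.70 ± 0.75, adjusted p = 0.0217), and the call in muscle ended without muscle replicate 1, muscle replicate 2 or MEF replicate 1 (adjusted p = 0.0721, 0.0601 and 0.0635). Col6a5 averaged 0.937 CPM in transdifferentiated cells, 0.0822 CPM in muscle and 0.322 CPM in MEF and did not pass in any comparison. Col6a4 was not tested and stayed at or below 0.194 CPM in every library. The class median over the 5 tested type VI genes was 0.47 in transdifferentiated cells against MEF, with 1 gene higher and the other 4 not passing. It was -2.01 in muscle against MEF, with 1 higher and 3 lower, and 2.99 in transdifferentiated cells against muscle, with 2 higher and the other 3 not passing. Without single libraries, the first median lay between 0.20 (transdifferentiated replicate 2) and 0.76 (MEF replicate 1), and was 0.22 without MEF replicate 2. The second lay between -2.69 (MEF replicate 1) and -1.02 (MEF replicate 2).

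The FACIT collagens moved in different directions, and Col14a1 separated all 3 groups. Col14a1 (chromosome 15, 55307750 to 55520803), which coats fibrils and limits their lateral growth in tendon, was at 67.7 and 64.3 CPM in transdifferentiated cells, 2.73 and 1.95 CPM in muscle and 12.2 and 11.3 CPM in MEF. Both transdifferentiated libraries were the highest and both muscle libraries the lowest. Its log2 fold change was 2.49 ± 0.28 (adjusted p = 0.00029) in transdifferentiated cells against MEF, -2.31 ± 0.30 (adjusted p = 0.000414) in muscle against MEF and 4.80 ± 0.32 (adjusted p = 0.000125) in transdifferentiated cells against muscle. Leaving out any single library ended none of these calls. The fibroblast and macrophage marker sums given above were also higher in transdifferentiated cells than in muscle, and that of macrophages was higher than in MEF as well; their part in the Col14a1 result was not tested.

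Col22a1, a FACIT collagen of tissue junctions such as that between muscle and tendon, was found mainly in transdifferentiated cells. It was at 7.14 and 9.83 CPM in transdifferentiated cells, 0.384 and 0 CPM in muscle and 0.0551 and 0.0971 CPM in MEF. Both transdifferentiated libraries lay above all others. With 330 counts in transdifferentiated cells and 3 in MEF, the ratio of levels was 111 (exact Poisson interval at 95%, 37.6 to 540.0, for counting error only), with adjusted p = 0.000943. Against muscle the log2 fold change was 5.26 ± 0.80 (adjusted p = 0.00407). Muscle held 9 counts, and its ratio to MEF was 2.91 (0.727 to 16.7), with adjusted p = 0.402. Both calls held without any single library.

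Col19a1, a basement-membrane-zone FACIT collagen that differentiating muscle cells express in mouse, was higher than MEF in both other groups. It was at 13.4 and 11.2 CPM in transdifferentiated cells, 7.12 and 14.2 CPM in muscle and 0.551 and 0.631 CPM in MEF, with a log2 fold change of 4.36 ± 0.48 (adjusted p = 0.000283) in transdifferentiated cells and 4.15 ± 0.48 (adjusted p = 0.000251) in muscle. Transdifferentiated and muscle libraries overlapped, and both MEF libraries lay below 1 CPM. Col20a1 was at 9.05 and 16.2 CPM in transdifferentiated cells, 5.29 and 5.36 CPM in muscle and 4.63 and 1.75 CPM in MEF and was higher in transdifferentiated cells than in MEF (1.99 ± 0.51, adjusted p = 0.0191). That call ended without transdifferentiated replicate 2 or MEF replicate 2 (adjusted p = 0.0781 and 0.0546), and Col20a1 passed in muscle against MEF without MEF replicate 1 (adjusted p = 0.0407).

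Col12a1 and Col16a1, the other tested FACIT genes, had their highest levels in MEF. Col12a1, which bridges fibrils in tendon and around muscle, was at 734 and 697 CPM in transdifferentiated cells, 512 and 291 CPM in muscle and 1243 and 1234 CPM in MEF. Its log2 fold change was -0.79 ± 0.29 (adjusted p = 0.0766) in transdifferentiated cells against MEF and -1.62 ± 0.30 (adjusted p = 0.00299) in muscle against MEF. Col16a1 was at 23 and 28.7 CPM in transdifferentiated cells, 24.6 and 12.3 CPM in muscle and 64.8 and 40.3 CPM in MEF and was lower in muscle than in MEF (-1.50 ± 0.39, adjusted p = 0.0156), a call that ended without muscle replicate 2 or MEF replicate 1 (adjusted p = 0.123 and 0.0528). Its fold change in transdifferentiated cells against MEF was -1.02 ± 0.38 (adjusted p = 0.0825), and it passed without MEF replicate 2 (adjusted p = 0.0253). The type IX genes of cartilage, Col9a1, Col9a2 and Col9a3, were not tested and stayed at or below 0.33 CPM in every library. Over the 6 tested FACIT genes, 4 were higher and the other 2 did not pass in transdifferentiated cells against MEF, with a median of 2.24. In muscle against MEF 1 was higher and 3 lower, with a median of -0.38 that became -2.09 without muscle replicate 1. In transdifferentiated cells against muscle 2 were higher, with a median of 1.04.

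The transmembrane collagens Col13a1, Col23a1 and Col25a1 were higher than MEF in both transdifferentiated cells and muscle. Col13a1 (chromosome 10, 61838236 to 61979108) encodes a surface collagen of the muscle fibre that is needed for the neuromuscular junction in mouse. It was at 1.63 and 4.16 CPM in transdifferentiated cells, 5.16 and 5.96 CPM in muscle and 0 and 0 CPM in MEF, with 115 counts in transdifferentiated cells, 219 in muscle and 0 in MEF. Against the limit that a count of 0 allows, 3 counts a library or 0.155 CPM over the group, it was at least 18.6-fold higher in transdifferentiated cells and at least 35.8-fold higher in muscle (adjusted p = 0.00124 and 0.000419). Muscle lay above both transdifferentiated libraries, with a log2 fold change of -0.93 ± 0.53 (adjusted p = 0.389) in transdifferentiated cells against muscle.

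Col25a1 (chromosome 3, 130131501 to 130599877), a surface collagen of muscle needed for motor axons to enter it in mouse, was at 20.5 and 13.5 CPM in transdifferentiated cells, 42.8 and 107 CPM in muscle and 0.275 and 0.534 CPM in MEF. Muscle was above transdifferentiated cells in every library, and both MEF libraries lay below 1 CPM. The log2 fold change was 5.35 ± 0.60 (adjusted p = 0.000298) in transdifferentiated cells against MEF and 7.48 ± 0.63 (adjusted p = 3.91e-05) in muscle against MEF. Against muscle it was -2.14 ± 0.46 (adjusted p = 0.0194) in transdifferentiated cells, which made Col25a1 the 1 collagen gene called lower there. This last call ended without transdifferentiated replicate 2 or muscle replicate 2 (adjusted p = 0.0529 and 0.174), and the muscle libraries themselves differed widely. Schwann cell markers had their highest sums in muscle as well, but as a list they did not move with Col25a1: of the 5 tested, 3 were higher and 1 lower in transdifferentiated cells than in muscle, and in muscle against MEF 1 was higher and 4 were lower. The member lower in transdifferentiated cells than in muscle was Erbb3, a neuregulin receptor, at 77.4 and 93.6 CPM in transdifferentiated cells, 225 and 228 CPM in muscle and 2.59 and 2.09 CPM in MEF. Its log2 fold change was -1.41 ± 0.25 (adjusted p = 0.00745) in transdifferentiated cells against muscle, and its part in the Col25a1 result was not tested.

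Col23a1 (chromosome 11, 51289920 to 51583918) had the opposite order of the converted cells and muscle, at 30.6 and 40.3 CPM in transdifferentiated cells, 7.51 and 8.16 CPM in muscle and 0.716 and 0.486 CPM in MEF. The groups were apart, with transdifferentiated cells highest. Its log2 fold change was 5.88 ± 0.40 (adjusted p = 1.25e-05) in transdifferentiated cells against MEF, 3.70 ± 0.38 (adjusted p = 0.000114) in muscle against MEF and 2.18 ± 0.32 (adjusted p = 0.00298) in transdifferentiated cells against muscle, and no single library ended these calls. Col17a1, a hemidesmosome collagen of epithelia, averaged 0.696 CPM in transdifferentiated cells, 0.365 CPM in muscle and 0.578 CPM in MEF and did not pass in any comparison. Of the 4 transmembrane genes, 3 were higher than in MEF in transdifferentiated cells and 3 in muscle. With Col13a1 at its bound, the class median against MEF was at least 4.78 in transdifferentiated cells and at least 4.43 in muscle. Between transdifferentiated cells and muscle, where Col13a1 had counts in both groups, the fitted median was -0.02.

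**Figure D4:**
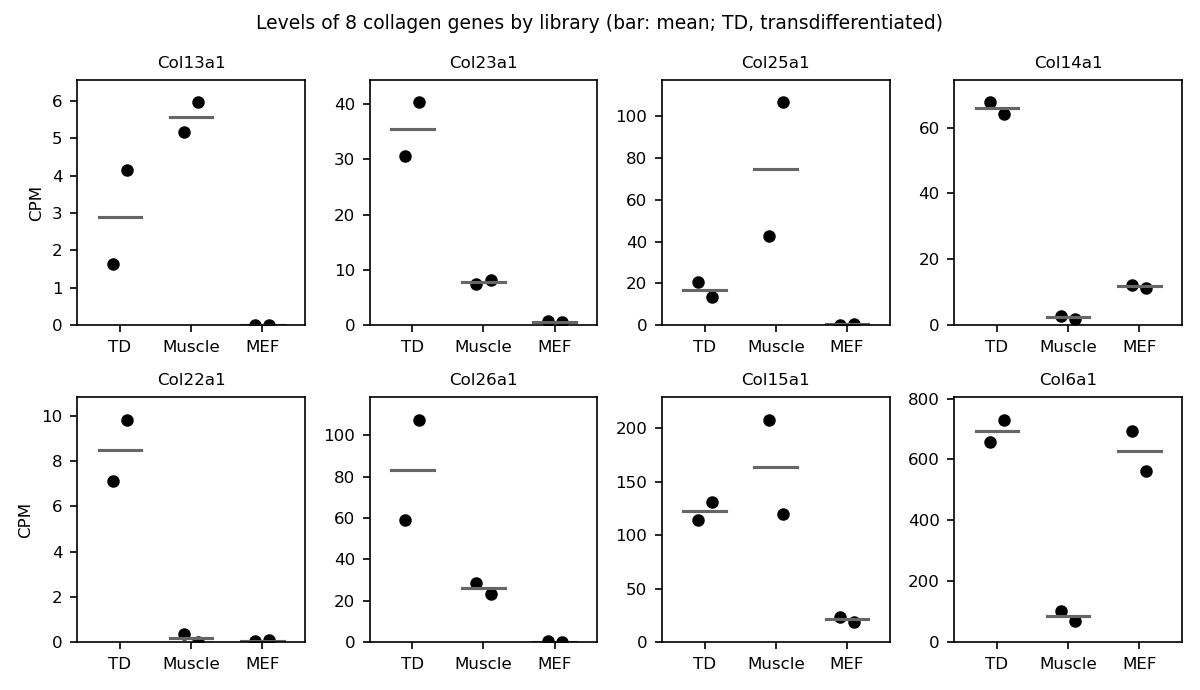
Level in CPM (y axis, from 0, scaled to each panel) of 8 collagen genes by group, with a point for each library and a bar at the mean. Col13a1 and Col25a1 are highest in muscle, Col23a1, Col14a1, Col22a1 and Col26a1 are highest in transdifferentiated cells, and Col6a1 is low in muscle alone.

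The multiplexins, short-chain and remaining collagens held further large differences. Col15a1, a collagen of the basement membrane zone of muscle and capillaries, was at 114 and 131 CPM in transdifferentiated cells, 208 and 119.7 CPM in muscle and 23.9 and 19.4 CPM in MEF. It was higher than in MEF in transdifferentiated cells (2.50 ± 0.32, adjusted p = 0.000667) and in muscle (2.92 ± 0.33, adjusted p = 0.00021), with no overlap with MEF and none of the calls lost without a library. Col18a1, the source of endostatin, was at 37.1 and 56.8 CPM in transdifferentiated cells, 51.9 and 39.9 CPM in muscle and 50.9 and 30.6 CPM in MEF and passed in no comparison. Col26a1 was at 58.9 and 107 CPM in transdifferentiated cells, 28.6 and 23.5 CPM in muscle and 0.496 and 0 CPM in MEF, with both MEF libraries far below the others. Its log2 fold change was 8.43 ± 0.79 (adjusted p = 0.000103) in transdifferentiated cells against MEF and 6.75 ± 0.77 (adjusted p = 0.000222) in muscle against MEF. Only 1 MEF library held counts of Col26a1, and few, so the size of both differences is uncertain. The direction is not affected. Between transdifferentiated cells and muscle the log2 fold change of Col26a1 was 1.68 ± 0.53 (adjusted p = 0.088), and it passed there without transdifferentiated replicate 1, MEF replicate 1 or MEF replicate 2 (adjusted p = 0.0242, 0.00255 and 0.00265).

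Col8a1 and Col8a2, chains of the short-chain network of vessel walls and the corneal endothelium, parted in muscle. Col8a1 was at 174 and 139 CPM in transdifferentiated cells, 242 and 197 CPM in muscle and 155 and 187 CPM in MEF and passed in no comparison. Col8a2 was at 19.2 and 17.5 CPM in transdifferentiated cells, 1.62 and 0.609 CPM in muscle and 12.2 and 9.91 CPM in MEF, with both muscle libraries far below the rest. It was lower in muscle than in MEF (-3.26 ± 0.46, adjusted p = 0.000709) and higher in transdifferentiated cells than in muscle (3.99 ± 0.47, adjusted p = 0.0011). Col10a1, the collagen of hypertrophic cartilage, was at 15.1 and 16.5 CPM in transdifferentiated cells, 19.5 and 10.8 CPM in muscle and 6.61 and 6.31 CPM in MEF, both MEF libraries being the lowest. It was higher than in MEF in transdifferentiated cells (1.29 ± 0.35, adjusted p = 0.0263) and in muscle (1.23 ± 0.35, adjusted p = 0.0249). Col10a1 lost the first call without transdifferentiated replicate 2, MEF replicate 1 or MEF replicate 2 (adjusted p = 0.0737, 0.0622 and 0.0664) and the second without muscle replicate 1, MEF replicate 1 or MEF replicate 2 (adjusted p = 0.244, 0.0578 and 0.0657).

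Col7a1, which forms the anchoring fibrils under epithelia, was at 9.05 and 9.97 CPM in transdifferentiated cells, 33.4 and 14.6 CPM in muscle and 28.7 and 22.9 CPM in MEF. It was lower in transdifferentiated cells than in MEF (-1.44 ± 0.40, adjusted p = 0.0276), and against muscle its log2 fold change was -1.34 ± 0.40 (adjusted p = 0.0734). Both transdifferentiated libraries were below all others. The call ended without transdifferentiated replicate 1 or MEF replicate 1 (adjusted p = 0.0756 and 0.0565), and the difference from muscle passed without muscle replicate 2, MEF replicate 1 or MEF replicate 2 (adjusted p = 0.0316, 0.0304 and 0.0296). Col28a1, a collagen of peripheral nerve, averaged 0.507 CPM in transdifferentiated cells, 0.241 CPM in muscle and 2.04 CPM in MEF and was lower than in MEF in transdifferentiated cells (-2.01 ± 0.64, adjusted p = 0.045) and in muscle (-3.02 ± 0.69, adjusted p = 0.00837). The first of these calls ended with each library removed in turn (adjusted p 0.0612 to 0.205) and the second without muscle replicate 2 (adjusted p = 0.0647).

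Levels of different collagens were set against each other per kilobase of exon, as RPKM, and each class was expressed as a share of all collagen reads per kilobase. Col1a1 was the most abundant collagen in every group, at 1199 RPKM in transdifferentiated cells, 1025 RPKM in muscle and 2284 RPKM in MEF over the longest transcript. Fibrillar genes held 77.3% and 79.5% in transdifferentiated cells, 87% and 83.4% in muscle and 85.4% and 81.8% in MEF. Type VI genes held 12.3% and 11.1% in transdifferentiated cells, 2.85% and 3.85% in muscle and 6.41% and 7.89% in MEF, highest in both transdifferentiated libraries and lowest in both muscle libraries. The mean share of type VI was 11.7% ± 0.826 in transdifferentiated cells, 3.35% ± 0.704 in muscle and 7.15% ± 1.04 in MEF (SD, n = 2 each). Basement membrane genes held 3.69% and 3.87% in transdifferentiated cells, 3.91% and 4.64% in muscle and 5.09% and 5.57% in MEF, and FACIT genes held 3.24% and 2.48% in transdifferentiated cells, 1.9% and 2.12% in muscle and 2.2% and 3.29% in MEF. Transmembrane genes held 0.366% and 0.344% in transdifferentiated cells, 0.277% and 0.96% in muscle and 0.0047% and 0.00973% in MEF, with both MEF libraries below all others. None of these differences can pass an exact permutation test of 2 against 2 libraries, for which the smallest two-sided p is 0.333. All shares are relative to the collagen total, which was itself highest in MEF.

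**Figure D5:**
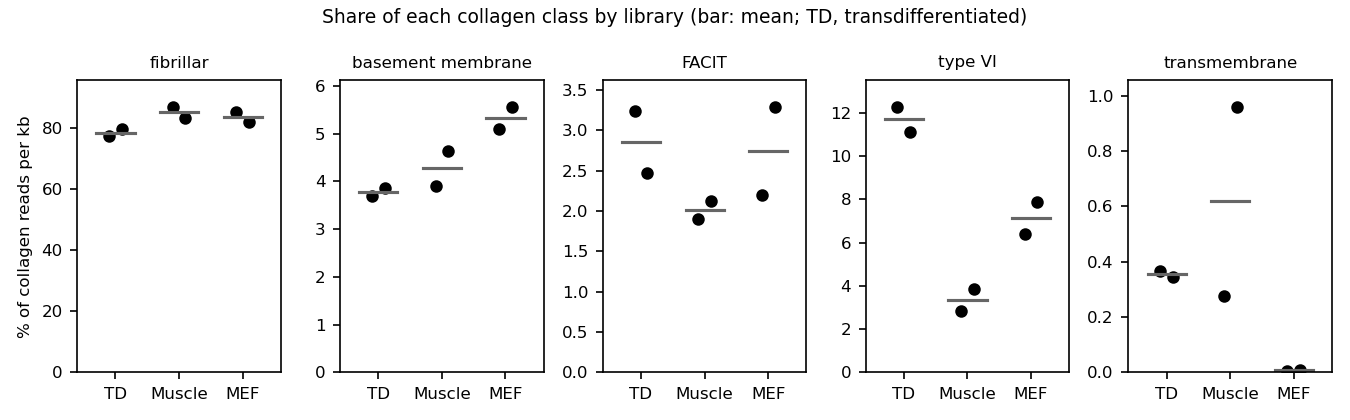
Share of all collagen reads per kilobase of union exons (y axis, percent, from 0, scaled to each panel) for 5 collagen classes, with a point for each library and a bar at the mean of each group. Type VI is at 11.1% and 12.3% in transdifferentiated cells, and below 4% in both muscle libraries.

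Genes that modify, fold, process, crosslink, bind and degrade collagen were read from the same fit. Of 62 genes in these lists 60 were in the table, and 55 were tested. Values with ± below are again log2 fold changes ± SE. The shares of all tested genes that follow are also the reference for the counts of each list below. Relative to MEF, 4 were higher (7.27%) and 18 lower (32.7%) in transdifferentiated cells, beside 15.9% and 11.3% of all tested genes. Their median log2 fold change was -0.58, and that of all tested genes 0.07. In muscle against MEF, 2 were higher (3.64%) and 27 lower (49.1%), beside 17.3% and 18.3% of all tested genes, with medians of -0.93 and 0. In transdifferentiated cells against muscle 8 were higher (14.5%) and 1 lower (1.82%), beside 7.58% and 2.46% of all tested genes, with medians of 0.19 and 0.03. These counts also moved with single libraries: 10 were lower than MEF in transdifferentiated cells without transdifferentiated replicate 1, 14 were lower than MEF in muscle without muscle replicate 2, and 4 were higher than muscle without that library.

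Among the 15 genes of prolyl and lysyl modification, 2 were higher and 4 lower in transdifferentiated cells than in MEF, 6 were lower in muscle than in MEF, and 1 was higher in transdifferentiated cells than in muscle. Plod3, a lysyl hydroxylase, averaged 84.5 CPM in transdifferentiated cells, 80.5 CPM in muscle and 291 CPM in MEF, with -1.78 ± 0.36 (adjusted p = 0.00678) in transdifferentiated cells and -1.85 ± 0.36 (adjusted p = 0.00418) in muscle against MEF. Crtap, a partner of prolyl 3-hydroxylation, averaged 105 CPM in transdifferentiated cells, 73.7 CPM in muscle and 275 CPM in MEF, with -1.39 ± 0.33 (adjusted p = 0.0144) and -1.90 ± 0.34 (adjusted p = 0.00252) in the same order. Ppib, its cyclophilin partner, gave -1.09 ± 0.28 (adjusted p = 0.0192) in transdifferentiated cells and -1.24 ± 0.28 (adjusted p = 0.00813) in muscle. Against this direction, P3h2, the prolyl 3-hydroxylase of type IV collagen, averaged 9.76 CPM in transdifferentiated cells, 2.72 CPM in muscle and 3.67 CPM in MEF. It was higher in transdifferentiated cells than in MEF (1.41 ± 0.38, adjusted p = 0.0235) and than in muscle (1.84 ± 0.39, adjusted p = 0.0174). Colgalt2, a collagen galactosyltransferase, had 26 counts in transdifferentiated cells and 3 in MEF, a ratio of 8.73 (2.68 to 45.1, adjusted p = 0.0336), and gave 1.14 ± 0.74 (adjusted p = 0.46) against muscle. P4hb, the beta subunit of prolyl 4-hydroxylase, was lower in muscle than in MEF (-0.93 ± 0.22, adjusted p = 0.0106), a call that ended without muscle replicate 1 or muscle replicate 2 (adjusted p = 0.0717 and 0.0981), and gave 0.35 ± 0.22 (adjusted p = 0.45) in transdifferentiated cells against muscle. Crtap lost its call in transdifferentiated cells without transdifferentiated replicate 1 or MEF replicate 1 (adjusted p = 0.0502 and 0.0593), and Ppib without transdifferentiated replicate 1 or MEF replicate 1 (adjusted p = 0.0824 and 0.0937). Ppib lost that in muscle without muscle replicate 2 (adjusted p = 0.0978). P3h2 lost its call against MEF without transdifferentiated replicate 2, MEF replicate 1 or MEF replicate 2 (adjusted p = 0.129, 0.0734 and 0.075), and against muscle without transdifferentiated replicate 2, muscle replicate 1 or muscle replicate 2 (adjusted p = 0.0825, 0.0642 and 0.165). Colgalt2 lost its call with each library removed in turn (adjusted p 0.0813 to 0.22).

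Of the 11 folding and secretion genes tested, 1 was higher and 4 lower in transdifferentiated cells than in MEF and likewise 1 higher and 4 lower in muscle. The higher gene in both was Tmem38b, a cation channel of the endoplasmic reticulum. It averaged 134 CPM in transdifferentiated cells, 123 CPM in muscle and 20.3 CPM in MEF, with 2.72 ± 0.24 (adjusted p = 6.68e-05) in transdifferentiated cells and 2.61 ± 0.24 (adjusted p = 6.41e-05) in muscle. Serpinh1, the collagen chaperone Hsp47, averaged 1065 CPM in transdifferentiated cells, 879 CPM in muscle and 2163 CPM in MEF and was lower than in MEF in transdifferentiated cells (-1.02 ± 0.31, adjusted p = 0.0395) and in muscle (-1.30 ± 0.31, adjusted p = 0.0113). The call in transdifferentiated cells ended without transdifferentiated replicate 1, muscle replicate 1, muscle replicate 2 or MEF replicate 1 (adjusted p = 0.187, 0.0512, 0.0525 and 0.156), and that in muscle without muscle replicate 2 (adjusted p = 0.108). Pdia3, a disulfide isomerase, was lower than in MEF in transdifferentiated cells (-1.11 ± 0.23, adjusted p = 0.00684) and in muscle (-1.28 ± 0.23, adjusted p = 0.00246). Fkbp10, a prolyl isomerase, was lower than in MEF in transdifferentiated cells (-1.64 ± 0.43, adjusted p = 0.0211) and in muscle (-1.53 ± 0.42, adjusted p = 0.0214). It lost its call in transdifferentiated cells without transdifferentiated replicate 1 or MEF replicate 1 (adjusted p = 0.0717 and 0.0689), and in muscle without muscle replicate 2 or MEF replicate 1 (adjusted p = 0.153 and 0.0842). Between transdifferentiated cells and muscle the smallest adjusted p belonged to Mia3, an export receptor (-0.29 ± 0.24, adjusted p = 0.599), Fkbp7 (0.38 ± 0.36, adjusted p = 0.674) and Serpinh1 (0.28 ± 0.31, adjusted p = 0.731).

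Of 7 tested propeptide-processing genes, 4 were lower in transdifferentiated cells than in MEF; 5 were lower and 1 higher in muscle than in MEF, and 2 were higher in transdifferentiated cells than in muscle. Bmp1 and Tll1 are proteinases that cut the C-propeptide, and Pcolce and Pcolce2 enhance that cut. Tll1 averaged 4.38 CPM in transdifferentiated cells, 1.37 CPM in muscle and 26.1 CPM in MEF, with -2.57 ± 0.33 (adjusted p = 0.000546) in transdifferentiated cells against MEF, -4.25 ± 0.36 (adjusted p = 3.6e-05) in muscle against MEF and 1.68 ± 0.35 (adjusted p = 0.016) in transdifferentiated cells against muscle. Bmp1 averaged 154 CPM in transdifferentiated cells, 225 CPM in muscle and 407 CPM in MEF and was lower in transdifferentiated cells than in MEF (-1.40 ± 0.32, adjusted p = 0.0112). Pcolce averaged 264 CPM in transdifferentiated cells, 199 CPM in muscle and 785 CPM in MEF and was lower than in MEF in transdifferentiated cells (-1.57 ± 0.41, adjusted p = 0.0217) and in muscle (-1.98 ± 0.42, adjusted p = 0.00592). Pcolce2 was lower than in MEF in transdifferentiated cells (-2.12 ± 0.46, adjusted p = 0.00896) and in muscle (-4.58 ± 0.55, adjusted p = 0.000287), and higher in transdifferentiated cells than in muscle (2.46 ± 0.55, adjusted p = 0.0231). Adamts14, an N-propeptidase, was the member higher in muscle than in MEF (1.38 ± 0.46, adjusted p = 0.0446), while Adamts2, another, was lower there (-1.45 ± 0.36, adjusted p = 0.0122) and gave 0.98 ± 0.35 (adjusted p = 0.135) in transdifferentiated cells against muscle. Tll1 lost its call against muscle without muscle replicate 1 or muscle replicate 2 (adjusted p = 0.139 and 0.105), and Bmp1 its call without transdifferentiated replicate 1 (adjusted p = 0.0526). Pcolce lost its call in transdifferentiated cells without transdifferentiated replicate 1 or MEF replicate 1 (adjusted p = 0.0746 and 0.066), and in muscle without muscle replicate 2 (adjusted p = 0.0533). Adamts2 lost its call without muscle replicate 2 or MEF replicate 1 (adjusted p = 0.109 and 0.058), and Adamts14 without muscle replicate 1, muscle replicate 2 or MEF replicate 2 (adjusted p = 0.222, 0.0603 and 0.124). Pcolce2 lost its call against MEF without MEF replicate 2 (adjusted p = 0.0542) and that against muscle without transdifferentiated replicate 1, muscle replicate 1 or muscle replicate 2 (adjusted p = 0.0542, 0.18 and 0.0862).

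The crosslinking genes were lower than in MEF in 3 of 6 in transdifferentiated cells and in 4 of 6 in muscle, and 1 was lower in transdifferentiated cells than in muscle. Lox, the lysyl oxidase that crosslinks collagen and elastin, averaged 1745 ± 42.5 CPM in transdifferentiated cells, 1716 ± 439 CPM in muscle and 6595 ± 1072 CPM in MEF (SD, n = 2 each), with -1.92 ± 0.27 (adjusted p = 0.0011) in transdifferentiated cells and -1.94 ± 0.27 (adjusted p = 0.000707) in muscle against MEF. Loxl4 gave -2.17 ± 0.28 (adjusted p = 0.000622) and -1.65 ± 0.28 (adjusted p = 0.00178) in the same order. Loxl3 averaged 20.6 CPM in transdifferentiated cells, 63.6 CPM in muscle and 146 CPM in MEF, and was lower in transdifferentiated cells than in MEF (-2.82 ± 0.40, adjusted p = 0.0011) and than in muscle (-1.63 ± 0.38, adjusted p = 0.0296). In muscle it was also lower than in MEF (-1.20 ± 0.38, adjusted p = 0.0362). Loxl3 lost its call between transdifferentiated cells and muscle without transdifferentiated replicate 1 or muscle replicate 1 (adjusted p = 0.0986 and 0.239), and that in muscle against MEF without muscle replicate 2 or MEF replicate 1 (adjusted p = 0.243 and 0.094). Loxl2 gave -0.73 ± 0.25 (adjusted p = 0.122) in transdifferentiated cells against muscle, and Pxdn, which crosslinks type IV collagen, gave 0.65 ± 0.29 (adjusted p = 0.241). Pxdn was lower in muscle than in MEF (-0.90 ± 0.29, adjusted p = 0.0405), a call that ended without muscle replicate 1, muscle replicate 2 or MEF replicate 1 (adjusted p = 0.117, 0.236 and 0.196).

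Of 9 tested collagen receptors, 1 was higher and 1 lower in transdifferentiated cells than in MEF, 3 were lower in muscle than in MEF, and 2 were higher in transdifferentiated cells than in muscle. Ddr2, a receptor tyrosine kinase for fibrillar collagen, averaged 75.8 CPM in transdifferentiated cells, 68.7 CPM in muscle and 295 CPM in MEF and was lower than in MEF in transdifferentiated cells (-1.96 ± 0.25, adjusted p = 0.000582) and in muscle (-2.10 ± 0.25, adjusted p = 0.000276). Itga1, an integrin chain that binds type IV collagen, averaged 29.8 CPM in transdifferentiated cells, 6.17 CPM in muscle and 40.9 CPM in MEF, lower in muscle than in MEF (-2.72 ± 0.30, adjusted p = 0.000178) and higher in transdifferentiated cells than in muscle (2.26 ± 0.30, adjusted p = 0.00186). Itga11, an integrin chain of fibroblasts, was lower in muscle than in MEF (-2.08 ± 0.44, adjusted p = 0.00613) and gave 1.18 ± 0.43 (adjusted p = 0.144) in transdifferentiated cells against muscle. Lair1, an inhibitory collagen receptor of leukocytes, averaged 2.74 CPM in transdifferentiated cells, 0 CPM in muscle and 0.222 CPM in MEF. It was higher in transdifferentiated cells than in MEF (3.55 ± 0.86, adjusted p = 0.0186) and at least 17.6-fold higher than in muscle, which had 0 counts (adjusted p = 0.00803). The first call ended without transdifferentiated replicate 1 (adjusted p = 0.0703). Macrophage markers moved with Lair1, with 9 of 10 tested higher in transdifferentiated cells against MEF and 10 of 10 against muscle, and their part in it was not tested. Mrc2, which takes up collagen for degradation, gave -1.29 ± 0.43 (adjusted p = 0.0533) in transdifferentiated cells against MEF.

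Of 7 tested collagenases, 2 were lower in transdifferentiated cells than in MEF, 5 were lower in muscle than in MEF, and 3 were higher in transdifferentiated cells than in muscle. Mmp13, a secreted collagenase, averaged 25.8 CPM in transdifferentiated cells, 1.06 CPM in muscle and 28.7 CPM in MEF, and was lower in muscle than in MEF (-4.71 ± 0.45, adjusted p = 8.58e-05) and higher in transdifferentiated cells than in muscle (4.56 ± 0.45, adjusted p = 0.000493). Mmp2, a gelatinase, showed the same directions, with -1.79 ± 0.31 (adjusted p = 0.00235) in muscle against MEF and 1.57 ± 0.31 (adjusted p = 0.014) in transdifferentiated cells against muscle. Mmp14, the membrane-bound collagenase, averaged 301 CPM in transdifferentiated cells, 232 CPM in muscle and 898 CPM in MEF and was lower than in MEF in transdifferentiated cells (-1.58 ± 0.34, adjusted p = 0.00924) and in muscle (-1.95 ± 0.34, adjusted p = 0.0025). Ctsk, cathepsin K, was lower in transdifferentiated cells than in MEF (-1.73 ± 0.30, adjusted p = 0.00336). Mmp9, a gelatinase of leukocytes among other cells, gave 1.31 ± 0.45 (adjusted p = 0.0611) in transdifferentiated cells against MEF and was higher there than in muscle (3.21 ± 0.50, adjusted p = 0.00465). It was lower in muscle than in MEF (-1.90 ± 0.50, adjusted p = 0.0167), a call that ended without muscle replicate 2 (adjusted p = 0.112). Mmp2 lost its call against muscle without muscle replicate 2 (adjusted p = 0.14). The fibroblast and macrophage marker lists moved with the genes higher than in muscle, and their part in these results was not tested.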

How the data were processed

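RNA was measured in 6 mouse libraries. Total RNA (Qiagen RNeasy) went into Lexogen SENSE mRNA-seq V2 libraries, sequenced as 75-bp single-end reads on a NextSeq, per the labels' protocols. The table the authors deposited holds raw, whole-number counts for each symbol. The submitters' processing notes list, with no role given, mm10, featureCounts 1.6.2, HISAT2 2.1.0, DESeq2 1.26.0 and Trim Galore 0.6.0; for the gene annotation and strand setting, the sources used here give nothing. Without a stated strand setting, reads over shared exons are uncertain; 13 collagen genes share exon bases with another gene, at most 6.07% of their exons. The authors' own deposited results name no contrast and were not used.

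Groups and replicate numbers came from the sample titles. Counts were fitted with edgeR 4.0.16 in R 4.3.3 (TMM, filterByExpr by group, robust quasi-likelihood with legacy dispersion, all 6 libraries, 3 residual degrees of freedom), and p-values were Benjamini-Hochberg adjusted over 17400 genes. The biological coefficient of variation was 27.3%. A count of 0 was given an upper limit of 3 counts, 0.128 to 0.183 CPM in a single library. Gene lengths and coordinates were from GENCODE M21 (mm10), matched by symbol, and start regions from RefSeq. RPKM used union exons for class shares, and the longest transcript for ratios of chains and for the Col1a1 level.

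The collagen genes, their classes and the other lists were chosen with earlier results of these data known. Each collagen gene with a mean of at least 10 CPM in any group was given by library, other tested ones by group means or call. Col2a1, Col13a1 and Col22a1, below that level, were given by library too, chosen after their values were seen. From each list of related genes, the 3 with the smallest adjusted p in each comparison were named, with any called against the list's majority. Alternatives were DESeq2 1.42.0, other scaling, no filter, the compared groups only, a replicate block, other gene lengths and leaving out each library.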

Additional observations from a re-analysis of the deposited data

How the results depend on the processing

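Of 71 pairs of collagen gene and comparison that were called in at least 1 planned fit, none changed direction under any alternative run. DESeq2 ended 2 calls and added 7, omitting the filter ended 1 and added 13, fitting only the compared groups ended 1 and added 5, RLE size factors changed none and upper-quartile factors added 1. Collagen genes lower in transdifferentiated cells than in MEF numbered 9 without the filter, against 5. Those lower in transdifferentiated cells than in muscle numbered 3 without the filter, with DESeq2 and with only the compared groups, against 1, and 2 of the related genes were lower there with DESeq2, against 1. With only the compared groups, the median log2 fold change was -1.52 for FACIT genes (5 tested) in muscle against MEF, and -0.93 for transmembrane genes (3 tested) in transdifferentiated cells against muscle; fewer genes were tested there.

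Leaving out single libraries gave 2 to 6 collagen genes lower in transdifferentiated cells than in MEF, 8 to 17 lower in muscle than in MEF, and 6 to 13 higher and 0 to 3 lower in transdifferentiated cells than in muscle. Class medians in transdifferentiated cells against MEF ranged from -0.24 to 0.17 for fibrillar, from -1.35 to -0.70 for basement membrane and from 0.20 to 0.76 for type VI genes. In muscle against MEF they ranged from -2.09 to -0.012 for FACIT and from -2.69 to -1.02 for type VI genes, and in transdifferentiated cells against muscle from -0.22 to 0.064 for transmembrane genes. Against MEF, where Col13a1 had 0 counts, the transmembrane median with that gene at its bound ranged from 4.49 to 4.88 in transdifferentiated cells and from 4.25 to 4.62 in muscle without single libraries, and was 5.16 in muscle with only the compared groups (3 tested). The fitted value of Col13a1 is no measured size, and with it the muscle median was 5.59, ranged from 5.17 to 5.88 and was 7.47 in the same order. Of the related genes (modification to degradation), 2 to 4 were higher and 10 to 20 lower in transdifferentiated cells than in MEF, 1 to 2 higher and 14 to 31 lower in muscle than in MEF, and 4 to 9 higher and 0 to 1 lower in transdifferentiated cells than in muscle. The removal of muscle replicate 2 ended the most calls of collagen genes, 17.

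Deviations of same-numbered libraries had no common sign, correlating at -0.291 between transdifferentiated cells and muscle, -0.529 between transdifferentiated cells and MEF, and 0.314 between muscle and MEF. These values do not decide whether samples were paired. With the replicate block, collagen genes were higher in 11 and lower in 4 in transdifferentiated cells against MEF, 8 and 15 in muscle against MEF, and 8 and 1 in transdifferentiated cells against muscle, with 9 calls ended and none added (edgeR). Of the related genes, the block gave 2 higher in transdifferentiated cells than in MEF, 1 higher in muscle than in MEF and 0 lower in transdifferentiated cells than in muscle. With the transdifferentiated numbers crossed, a pairing chosen after seeing the data, the block gave 11 collagen genes lower in transdifferentiated cells than in MEF, 21 higher and 4 lower than in muscle (transmembrane median -0.14), and of the related genes 10 higher and 28 lower in transdifferentiated cells than in MEF, 5 higher in muscle than in MEF, and 14 higher and 7 lower in transdifferentiated cells than in muscle.

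Class shares moved with the length used. Over the longest transcript they were 80.1% fibrillar, 2.96% basement membrane, 10.7% type VI and 0.310% transmembrane in transdifferentiated cells, and the basement membrane share was 3.47% in muscle and 4.36% in MEF. Without length scaling they were 80.0% fibrillar, 3.29% basement membrane, 4.55% FACIT, 9.42% type VI and 0.301% transmembrane in transdifferentiated cells, 3.42% FACIT in muscle, and 4.73% basement membrane, 4.93% FACIT and 6.02% type VI in MEF. The cause of the other changes was not tested. Genes under about 1 CPM rest on few counts, and 2 libraries a group limit every value.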

Other observations

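Adjacent collagen genes can be set side by side as values. Col4a1 and Col4a2, head to head on chromosome 8, had log2 fold changes of -1.15 ± 0.29 and -1.06 ± 0.35 in transdifferentiated cells against MEF, and -1.27 ± 0.29 and -1.60 ± 0.36 in muscle against MEF. Col6a1 and Col6a2, on the same strand of chromosome 10, had 2.99 ± 0.29 and 3.56 ± 0.35 in transdifferentiated cells against muscle, while Col18a1, 326009 bp beyond Col6a1 on that strand, had 0.03 ± 0.34. Col3a1 and Col5a2, tail to tail on chromosome 1, differed in direction against MEF, with 1.03 ± 0.31 and -1.14 ± 0.32 in transdifferentiated cells. Col9a1, tail to tail with Col19a1 at 9205 bp, had 4 and 2 counts in transdifferentiated cells and 0 in muscle and MEF, whereas Col19a1 was detected in all 6 libraries.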
